A study of Nothobranchius furzeri with 6 samples.

Results

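Serpins in the killifish liver were followed by ribosome profiling. A ribosome shields the stretch of mRNA it sits on from nuclease, and each shielded fragment that was sequenced is a footprint. The set held 15 of 22757 transcripts of Nothobranchius furzeri, the African turquoise killifish, a fish with a very short life span. A transcript was a member when its translated coding sequence gave a protein of 330 to 650 residues with the serpin signature, a pattern of 11 residues built around a phenylalanine, inside the last 80 residues. The rule used only the sequence and no footprint value, though it was chosen with earlier results of these data known. Livers of the strain MZM-0410 were taken from young fish at 5 weeks post-hatching (wph), adult fish at 12 wph and old fish at 39 wph, with 2 libraries per age. No fish carried a transgene or received a treatment according to the labels, and each library was made from livers of several fish pooled together, with both sexes in equal ratio, so that replicate error below is the error between pools of fish. Coding footprints ranged from 22555152 in the second old library to 39661188 in the first adult one. None of the transcript identifiers matched a gene name in the reference table, so members are called here by their number of codons, no role is given to any single one, and the tissue label could not be checked against liver marker genes.

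Serpins are a family of proteins best known as serine protease inhibitors. An inhibitory serpin offers an exposed reactive centre loop as bait, the target protease cleaves it, and the loop then inserts into the body of the serpin and carries the trapped protease with it. A hinge of small residues at the base of the loop allows this insertion. In vertebrates the liver secretes many serpins into the plasma, where they restrain blood clotting, the breakdown of clots and inflammation, while others remain inside cells or have lost inhibition and carry hormones or help collagen to fold.

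The members differed widely in sequence. Over the 105 pairs the median identity of the aligned proteins was 30.1%, with a range of 21.5% to 64.4%. A stretch rich in hydrophobic residues near the start, as in a secreted protein, was present in 12 members and absent from the 415-, 378- and 382-codon members. A hinge pattern (glycine, then threonine, alanine or serine, any residue, alanine, any residue, alanine) lay ahead of the signature in 10 members. It was not found in the 469-, 394-, 405-, 406- and 416-codon members, and the 405-codon protein ended in RDEL, a signal that returns proteins to the endoplasmic reticulum. The coding sequences below show a loop with the hinge and one without it. They run from the hinge, or from 30 codons ahead of the signature where no hinge was found, to the end of the signature, with hinge and signature in capitals.
408-codon serpin, codons 358 to 388: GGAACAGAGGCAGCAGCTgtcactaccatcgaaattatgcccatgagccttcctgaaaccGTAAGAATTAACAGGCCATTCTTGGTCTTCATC
469-codon serpin, codons 410 to 450: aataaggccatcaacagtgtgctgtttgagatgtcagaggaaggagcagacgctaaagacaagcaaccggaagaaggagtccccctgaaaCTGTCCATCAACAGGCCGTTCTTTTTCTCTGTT

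Translation of serpins was concentrated on 6 members. These took 99.6% of the 3594514 serpin footprints in the 6 libraries, and all 6 had a hydrophobic start. Density is given as RPKM, footprints per kilobase of coding sequence relative to the size of the library, with library sizes scaled by TMM factors, which assume that most transcripts do not change. The 408-codon serpin ranked 19 among all transcripts by mean density. Its RPKM was 7492 and 7835 in the young libraries, 8014 and 7658 in the adult libraries, and 8756 and 3987 in the old libraries. The old libraries thus lay on either side of all others, and no age stood apart. The 411-codon serpin, of rank 44, had 2252 and 2611 RPKM in young, 3024 and 2887 in adult, against 2564 and 2179 in old livers, so that adult lay above both other ages. The 505-codon serpin, of rank 76, had 1670 and 1579 RPKM in young, 1494 and 1627 in adult, but 911 and 768 in old livers. Both old libraries of this serpin were below all others.

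**Figure D1:**
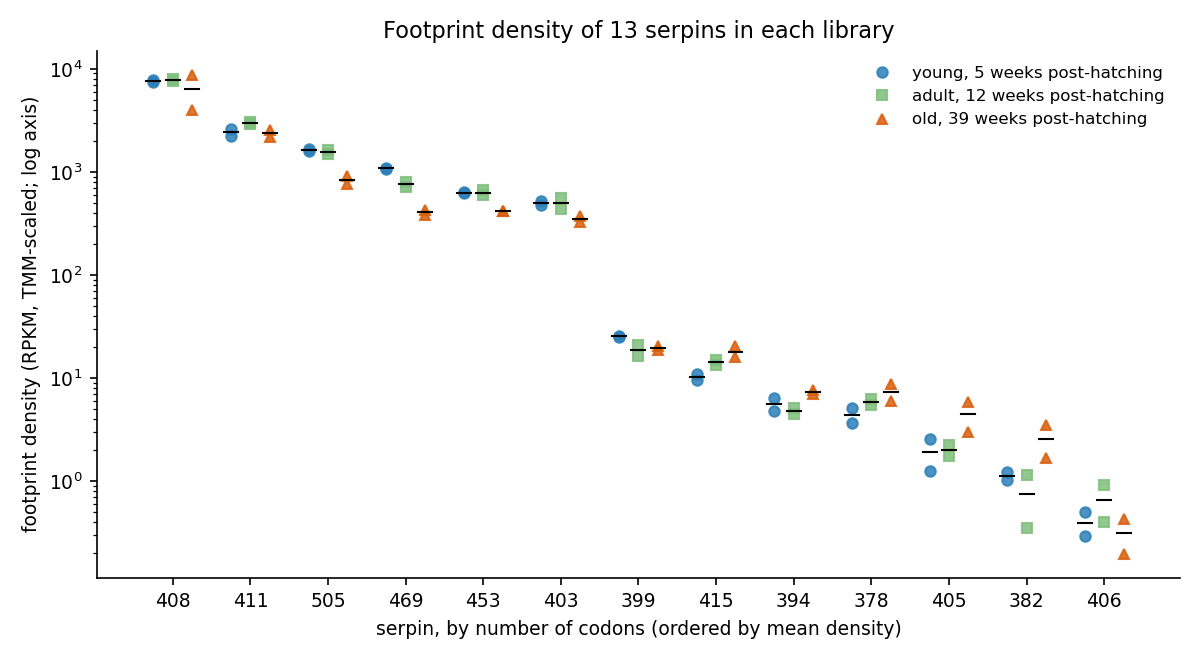
Footprint density (RPKM with TMM scaling, log axis) of the 13 serpins with enough footprints for the test, ordered by mean density and named by their number of codons. Each point is 1 library and each bar the mean of an age. The 6 densest serpins lie above 300 RPKM in every library and the others below 30.

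The 469-codon serpin, of rank 116, moved the most among these 6. Its density was 1073 and 1103 RPKM in young, 720 and 803 in adult, with 380 and 428 in old livers. The 3 ages did not overlap, and the adult values fell between the other two ages. The 453-codon serpin, of rank 147, was at 635 and 619 RPKM in young, 594 and 664 in adult, against 414 and 415 in old livers. The 403-codon serpin, of rank 179, was at 525 and 482, 438 and 554, and 377 and 324 RPKM in the same order. For both, the old libraries lay below all others while young and adult overlapped. Since the data are from bulk tissue, fewer cells of a type cannot be told apart from less RNA, or less translation, per cell.

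The remaining members were far less dense. The 399-codon serpin led them with 25.7 and 25.2 RPKM in young, 16.3 and 21.1 in adult, with 18.8 and 20.5 in old livers. The 3 members without a hydrophobic start, which is the form of a serpin that stays inside the cell, all had both old libraries above both young ones. So did the 394- and 405-codon members, which have such a start, and 33.7% of all tested transcripts. For the 415-codon member RPKM was 9.59 and 11 in young, 13.5 and 15.0 in adult, against 20.3 and 15.9 in old livers. For the 378-codon member it was 3.67 and 5.17 in young, 6.30 and 5.44 in adult, with 8.74 and 6.0 in old livers. The 382-codon member had 1.04 and 1.22 RPKM in young, 1.16 and 0.351 in adult, against 1.69 and 3.50 in old livers, from 9 to 150 footprints per library. These 3 are each other's relatives: the 415- and 382-codon proteins were 64.4% identical, and 40.8% of the 28-base windows of the 382-codon sequence occurred in another transcript with at most 2 mismatches. In the 415- and 378-codon sequences this part was 9.4% and 1.85%. Because only reads with a single best location were kept, the levels of these members are uncertain, most of all for the 382-codon one.

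The 394-codon serpin, without a hinge, had 6.49 and 4.76 RPKM in young, 5.15 and 4.47 in adult, with 7.05 and 7.61 in old livers. The 405-codon serpin with the RDEL ending had 2.56 and 1.27, 1.77 and 2.25, and 5.88 and 3.02 RPKM in the same order, so that in both the old libraries were the higher ones. The 406-codon serpin stayed between 0.198 and 0.928 RPKM with overlapping ages. The 416-codon transcript had 36 footprints in all and the 414-codon transcript none, and neither passed the filter on low counts that precedes the edgeR test. DESeq2, run without that filter, gave the 416-codon transcript a log2 change of -2.62 from young to old livers (adjusted p = 0.339).

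The first comparison asked which serpins differed between old and young livers. In edgeR's quasi-likelihood test over 15549 transcripts, 1 of the 13 serpins tested passed an adjusted p of 0.05. Of all transcripts 11.6% passed (6.55% higher and 5.01% lower in old livers), so 1 of 13 is no more than the background share. That background rested on both young libraries: it was 1797 transcripts in all, but 2 and 3 without the first and the second young library, 854 without the second old library, and 969 with the replicate number as a block. The one that passed was the 469-codon serpin (Nfu_t_1_007332), which fell by 1.43 on the log2 scale (SE 0.28, adjusted p = 0.0273, n = 2 libraries per age), or 2.69-fold lower. Its change was -0.51 (SE 0.27, adjusted p = 0.433) between adult and young and -0.91 (SE 0.27, adjusted p = 0.0947) between old and adult. With the replicate number as a block its adjusted p was 0.0581, and without any single old or young library it lay between 0.0589 and 0.162, at log2 changes of -1.57 to -1.42.

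No other serpin passed. The nearest were the 415-codon serpin at a log2 change of 0.81 (SE 0.21, adjusted p = 0.0522) and the 505-codon serpin at -0.95 (SE 0.29, adjusted p = 0.0760). Next came the 405-codon serpin at 1.23 (SE 0.44, adjusted p = 0.110) and the 378-codon serpin at 0.74 (SE 0.28, adjusted p = 0.124). With TMM scaling both old libraries were above both young ones for 5 of the 13, below for 5, and overlapped for 3. Of all tested transcripts 33.7% lay above and 29.4% below in this way. At an unadjusted p of 0.05 there were 5 of 13 serpins, or 38.5%, against 31.1% of all transcripts, and the median log2 change was -0.27 over the 13 against 0.07 over all transcripts. The order of these medians depended on the second old library. Without it they were 0.05 for the serpins and -0.01 for all, and without the first old library -0.53 and -0.03. Without the first young library they were -0.22 and 0.12, and without the second -0.24 and 0.08. With DESeq2, 4 of 14 were called: the 469-, 505- and 453-codon serpins lower and the 415-codon serpin higher. It called 16% of the 16134 transcripts to which it gave an adjusted p.

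The direction of the abundant serpins depended on the scaling. The TMM factors ran from 0.586 to 1.66 and were highest in the old libraries. With library totals in place of TMM factors, which was tried after the data had been seen, the median of all transcripts moved from 0.07 to 0.93 between old and young. Under this scaling the 408-, 411-, 453-, 403-, 399- and 406-codon serpins turned from lower to higher in old livers, at 0.54, 0.81, 0.27, 0.34, 0.50 and 0.53. The 505-codon serpin moved from -0.95 to -0.09, while the 469-codon serpin was at -0.56 (SE 0.53, adjusted p = 0.422). With all libraries the median of the 13 serpins was 0.54, below that of all transcripts as it was with TMM factors. The 415-, 378-, 405- and 382-codon serpins passed the test under library totals, with log2 changes of 1.65, 1.55, 2.09 and 2.10, where 20.5% of all transcripts were called higher in old livers.

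**Figure D2:**
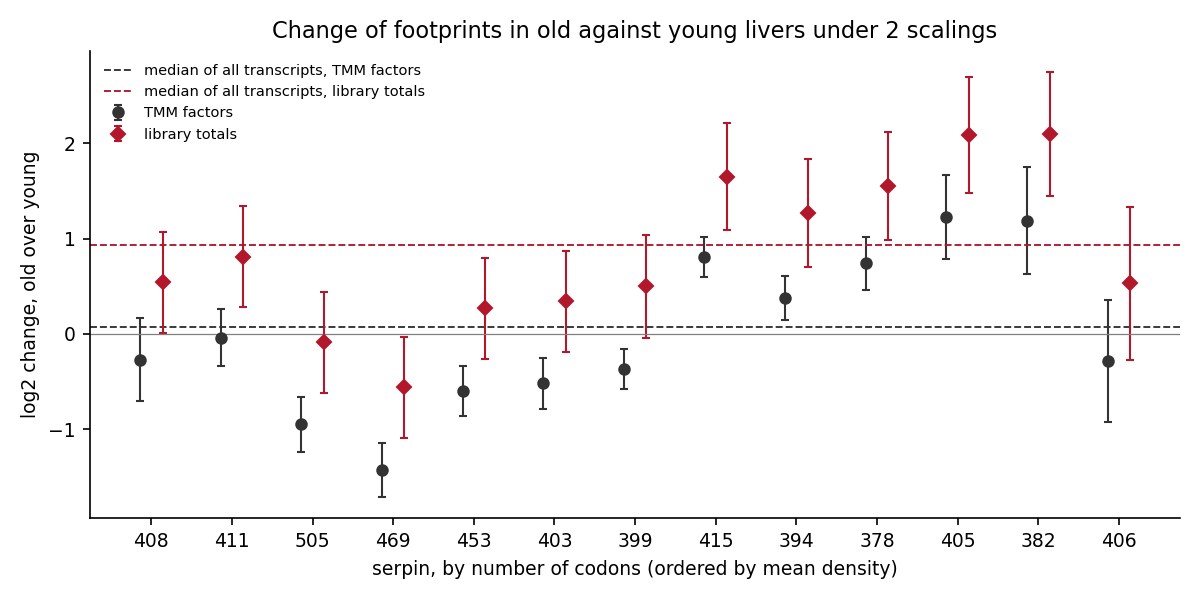
Log2 change of footprints in old over young livers for the 13 tested serpins, with TMM factors (circles) and with library totals (diamonds). Bars are standard errors derived from the F statistic of the edgeR test, and dashed lines are the medians of all transcripts. The whole set moves up by about the same amount as the median, from 0.07 to 0.93, and the 469-codon serpin is the lowest under both scalings.

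A measure that needs no scaling between libraries is the part each serpin took of the serpin footprints of its own library. The 469-codon serpin took 8.60% and 8.51% in young, 5.57% and 6.22% in adult, against 3.17% and 5.82% in old livers, so that both other ages lay below young and overlapped each other. The 411-codon serpin took 15.8% and 17.7% in young, 20.5% and 19.6% in adult, with 18.7% and 25.9% in old livers, above young in every other library. The 408-codon serpin took 52.3% and 52.6%, 53.9% and 51.6%, and 63.5% and 47.1%, with the old libraries again at both extremes. Such parts depend on one another, and the spread of the 408-codon serpin between the old libraries moves those of all others.

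Between adult and young livers 0 of 13 serpins passed the edgeR test, where 1.35% of all transcripts did. At an unadjusted p under 0.05 there were 0 serpins, against 14.9% of all transcripts. DESeq2 called 0 of 14, against 4.01% of all transcripts. Between old and adult livers 0 of 13 passed, where 3.83% of all transcripts did. There 5 of 13 serpins had an unadjusted p under 0.05, where 25.9% of all transcripts did. DESeq2 called 2 of 14, both lower in old livers, and 11% of all transcripts. In the latter comparison the old libraries lay below the adult ones for 5 serpins, above for 4, and overlapped for 4, where 26.6% of all transcripts lay below and 28.1% above.

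Taken as a family, serpins made up 1.31% and 1.66% of coding footprints in young, 2.03% and 1.06% in adult, against 2.30% and 1.72% in old livers. Old livers were 0.522 percentage points above young, but with 2 libraries per age the exact two-sided permutation test cannot go below p = 0.333, the value found here. The adult libraries spanned most of the range by themselves. Counted against the footprints outside the 10 most abundant transcripts, none of which is a serpin, the shares were 3.31% and 3.21% in young, 3.39% and 2.83% in adult, with 3.86% and 2.29% in old livers, and the difference between old and young turned to -0.188 percentage points (p = 1, exact permutation test).

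Trypsin-like serine proteases, the enzyme family that inhibitory serpins are best known to restrain, were picked by their sequence around the catalytic histidine and serine. Of 62 such proteins 42 were tested. Between old and young livers 5 were higher and 2 lower in old, between old and adult 6 higher and 1 lower, and between adult and young 0 passed (5 at an unadjusted p under 0.05, and 1 with DESeq2). Of all transcripts 11.6%, 3.83% and 1.35% passed in these comparisons, in the same order. Between adult and young 14.9% of all had an unadjusted p under 0.05. DESeq2 called 4.01% there of those given an adjusted p. With the replicate block 5 of the 42 passed between old and young, where 969 of all 15549 transcripts did. Between old and adult 0 passed with it, where 1 of all did. At an unadjusted p under 0.05 there were 22 of the 42 proteases between old and young, or 52.4%, against 31.1% of all transcripts. Between old and adult there were 26, or 61.9%, against 25.9% of all. From adult to old livers the median log2 change of the proteases was 0.73, beside -0.30 for the serpins and 0.00 for all transcripts. From young to old it was 0.10, beside -0.27 and 0.07 in the same order. The median of the proteases was 0.18 without the first young library and 0.20 without the second. That of all transcripts was then 0.12 and 0.08. With DESeq2 the counts over the 43 given an adjusted p were 10 higher and 10 lower in old than in young livers. Of the 16134 transcripts given one, 16% were called.

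Within a transcript, ribosomes spend unequal time on codons, and a pause score gives the footprints at a codon divided by the mean of the internal part, which leaves out the first and last 20 codons. Codons are numbered from 1 at the start codon and are those the authors assigned to each footprint, so an offset of 1 codon in that step would move every position below by 1 codon. In all, 10 serpins had the coverage that the study's methods ask for (over 0.5 reads per codon and over 64 reads in each age), and the 6 dense ones had at least 33.6 reads per codon in every library. The pause profile of each serpin was correlated between every pair of libraries. For the 408-codon serpin Pearson's r of the pause scores over 368 codons was 0.926 to 0.953 within an age and 0.875 to 0.944 between ages, and for the shallowest of the 6, the 403-codon serpin, it was 0.862 to 0.878 and 0.779 to 0.867. The lowest values between ages were 0.740 in the 505-codon, 0.741 in the 453-codon and 0.755 in the 469-codon serpin. These are descriptions across codons, which are not replicates.

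**Figure D3:**
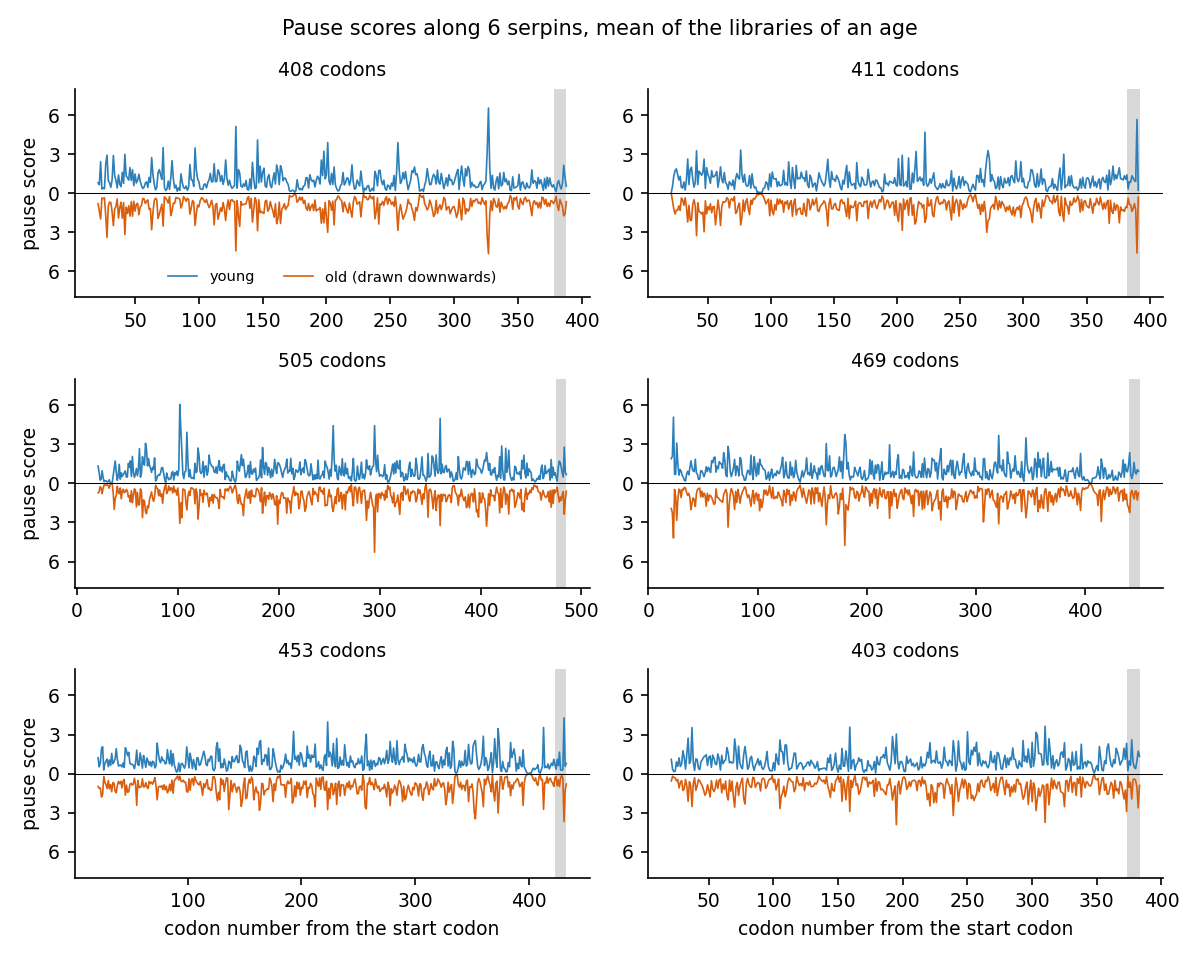
Pause scores along the internal part of the 6 dense serpins, as the mean of the 2 libraries, with young livers drawn upwards and old livers downwards; the grey band marks the signature. Tall peaks recur at both ages, such as codon 327 of the 408-codon serpin and the ninth codon of the signature in the 411- and 453-codon serpins. Some were lower in old livers, such as codon 102 of the 505-codon serpin and codon 222 of the 411-codon serpin.

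Different serpins did not share one profile. After alignment of the 6 proteins, r of the log2 pause scores between 2 serpins ranged from 0.0996 to 0.291 over 15 pairs, with a median of 0.168. By mean score over the 6 libraries, the tallest pause of the 408-codon serpin was at codon 327 (GGA), with scores of 6.61 and 6.47 in young, 4.75 and 7.99 in adult, against 4.5 and 4.79 in old livers. That of the 505-codon serpin was at codon 295 (CTT), at 4.84 and 4.03, 5.07 and 5.13, and 5.51 and 5.05. The 469-codon serpin had its tallest at codon 23 (TGC), close to its start, at 5.04 and 5.15, 6.20 and 8.03, and 4.96 and 3.41, and the 403-codon serpin at codon 310 (AAC), at 3.65 and 3.62, 4.31 and 6.43, and 3.65 and 3.84. In 3 of these 4 the tallest value was in the same library, the second adult one.

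For the other 2 dense serpins the tallest pause lay in the serpin signature itself, at its ninth codon. In the 411-codon serpin this was codon 390, with scores of 6.07 and 5.24 in young, 5.27 and 5.45 in adult, with 4.48 and 4.71 in old livers. In the 453-codon serpin it was codon 431, with 4.75 and 3.82, 4.25 and 4.71, and 3.31 and 4.04. In all 6 dense serpins 19 or 20 codons follow the signature ahead of the stop codon. Place in the signature thus cannot be told apart from distance to the stop codon. The last 20 codons are outside the internal part and were not ranked. The ninth codon was also the highest of the 11 signature codons in all 6 libraries of the 505-codon serpin (mean score 2.44) and of the 408-codon serpin (mean score 1.91). It was not in the 469- and 403-codon serpins, where the mean scores were 1.18 and 1.01 and the highest signature codons by mean score were codon 2 (mean score 2.18) and codon 1 (mean score 2.5). Signature codon 2 was the highest in all 6 libraries of the 469-codon serpin, but codon 1 in only 4 libraries of the 403-codon serpin. The signatures of the 6 are given here because they show that the ninth codon, in capitals, differs among the serpins in which it was the highest signature codon.
411-codon serpin, codons 382 to 392: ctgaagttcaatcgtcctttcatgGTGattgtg
453-codon serpin, codons 423 to 433: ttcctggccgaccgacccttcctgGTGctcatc
505-codon serpin, codons 475 to 485: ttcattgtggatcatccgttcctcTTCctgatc
408-codon serpin, codons 378 to 388: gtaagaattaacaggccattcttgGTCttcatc
469-codon serpin, codons 440 to 450: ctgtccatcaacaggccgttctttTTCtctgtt
403-codon serpin, codons 373 to 383: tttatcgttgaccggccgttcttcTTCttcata
Both serpins with the tallest pauses read GTG and the 408-codon serpin read GTC, both of them valine codons. In the 505-codon serpin, where this was also the highest signature codon, it was TTC, for phenylalanine. The 469- and 403-codon serpins, where it was not, read TTC as well.

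**Figure D4:**
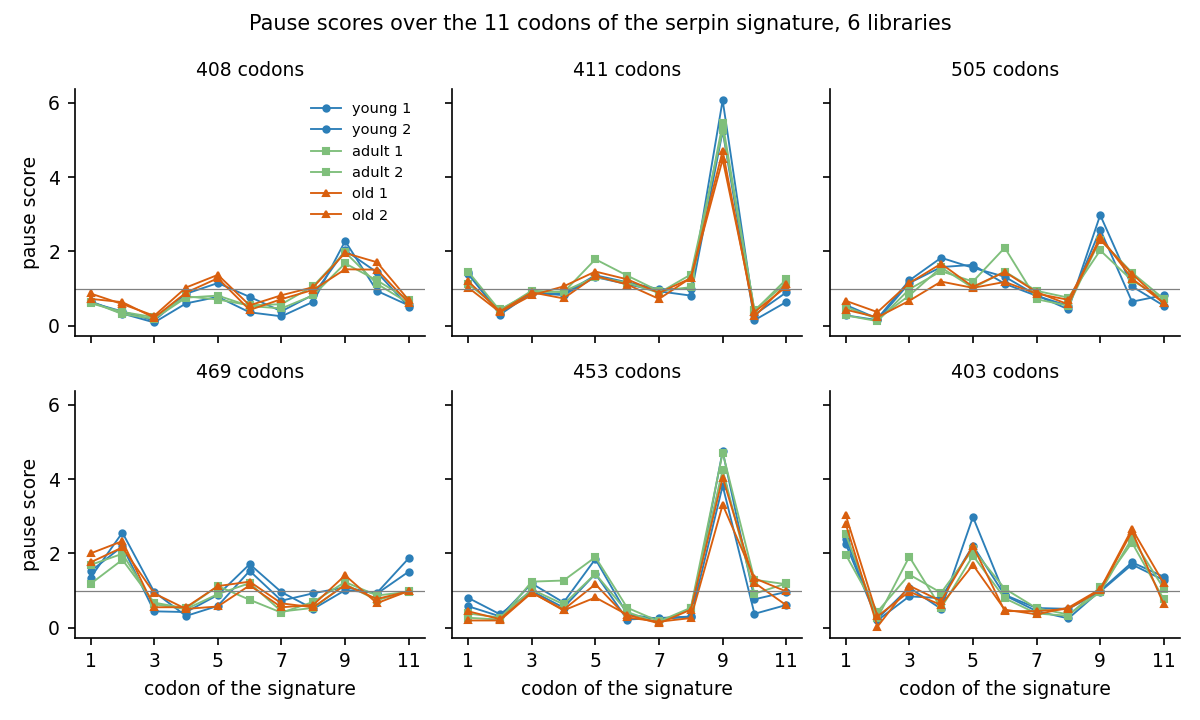
Pause score at each of the 11 codons of the serpin signature in the 6 dense serpins; each line is 1 library, coloured by age, and the grey line marks the mean of the internal part. The ninth codon stands highest in every library of the 408-, 411-, 505- and 453-codon serpins, at mean scores of 1.91, 5.20, 2.44 and 4.15.

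Over the 346 aligned codons with a score in all 6 serpins, 12 had a score above 2 in at least 3 of them and 2 in 5 of them. At the first of those 2, a leucine or phenylalanine codon, the 408-codon serpin had a mean score of 2.72 at codon 198, the 411-codon 2.31 at codon 201, the 505-codon 4.94 at codon 295, the 469-codon 2.02 at codon 260 and the 403-codon 2.09 at codon 192, while the 453-codon serpin was at 0.694. At the other, an alanine or glycine codon, 5 serpins lay between 2.37 and 2.42 and the 408-codon serpin at 1.27. From the hinge (or 30 codons ahead of the signature) to the end of the signature, or to the end of the internal part where that came first, the mean pause score of the loop was 1.10 to 1.34 in the 411-codon and 1.10 to 1.17 in the 403-codon serpin over the 6 libraries. It was below 1 in every library of the other 4, at 0.649 to 0.852 in the 453-codon, 0.717 to 0.875 in the 408-codon, 0.719 to 0.926 in the 469-codon and 0.822 to 0.989 in the 505-codon serpin.

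Strong pauses, with a score above 6, were few in every library. Of the 2409 internal codons of the 6 dense serpins there were 2 and 2 in young, 2 and 3 in adult, against 0 and 0 in old livers. With a score above 4 the counts were 12 and 12, 12 and 13, and 5 and 7, so that both old libraries held fewer than any other. Strong pauses were not counted in other deep transcripts, so whether the lower counts are particular to serpins was not tested. The exact permutation test gave p = 0.333 for old against young at either threshold, the smallest that 2 libraries per age allow.

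Codons whose pausing differed between ages were called with Fisher's exact test on summed reads, a choice taken from the study's methods. The p-values were adjusted by Benjamini-Hochberg over 2505249 codons. Between old and young livers 229 of 3835 serpin codons were increased and 218 decreased, or 5.97% and 5.68%, where 0.366% and 0.438% of all codons tested were. Deep transcripts as a whole had more calls: among 129 other transcripts at least as deep as the shallowest of the 6 dense serpins 11.1% of codons were increased and 11.8% decreased, beside 9.46% and 8.97% in the 6 serpins. Between adult and young livers 184 serpin codons were increased and 218 decreased (0.340% and 0.386% of all codons), and between old and adult 154 and 149 (0.253% and 0.297%). Between adult and young the 129 other deep transcripts had 9.33% and 10.7%, beside 7.64% and 9.01% in the 6 serpins. Between old and adult they had 8.28% and 8.23%, beside 6.39% and 6.19%. The 6 dense serpins held 444 of the 447 calls between old and young. Without the second young library fewer codons had the coverage asked for, 3143 in serpins against 3835 and 1504948 in all against 2505249. Calls between old and young and between adult and young were then fewer both in serpins and over all codons.

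Summed reads leave out the spread between libraries. The libraries of the 2 ages did not overlap at 377 of the 447 serpin codons called between old and young, or 84.3%, beside 87.6% of the called codons of all transcripts and 82% of those of the 129 other deep transcripts. A quasi-likelihood model in edgeR that takes the spread between libraries into account, added after seeing the data, called 34 of the 2378 serpin codons with at least 60 reads over the 6 libraries between old and young livers (19 increased, 15 decreased). That was 1.43%, against 0.868% of the 177733 such codons of all transcripts. It called 7 serpin codons between adult and young (0.294%, against 0.252%) and 0 between old and adult, where 0.0383% of all such codons were called. In the last comparison 9.04% of the serpin codons and 7.57% of all had an unadjusted p under 0.05, or 215 serpin codons. None of these shares from the model was set against transcripts of like depth, so they do not show an excess particular to serpins. Of the 34 and 7, 23 and 5 were also called by Fisher's exact test in the same direction. A Fisher call also needed reads above the transcript mean at the higher age. The model had no such condition, so the 2 lists follow unlike rules.

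Some codons called by Fisher's exact test between old and young are printed with 7 codons on either side, the changed codon in capitals. They had at least 50 reads at the higher age and no overlap between the libraries of the 2 ages. Those with the largest log2 odds ratio were taken, no more than 4 in each direction and 2 in any 1 serpin. This limit by itself spreads them over serpins, and whether changed codons share a codon or context was not tested. The edgeR model gave larger increases at codons 309 and 377 of the 505-codon serpin (log2 changes of 1.94 and 1.79, adjusted p = 0.0143 and 0.00653), which were not among the Fisher calls. Those calls also needed reads above the transcript mean at the higher age, which the model did not ask for. The first 4 of the printed codons increased from young to old and the last 4 decreased.
411-codon serpin, codon 200: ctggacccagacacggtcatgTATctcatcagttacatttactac
403-codon serpin, codon 146: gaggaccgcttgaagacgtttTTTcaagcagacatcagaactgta
453-codon serpin, codon 136: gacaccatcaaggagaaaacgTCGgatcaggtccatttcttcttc
453-codon serpin, codon 331: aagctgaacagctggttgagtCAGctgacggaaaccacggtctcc
469-codon serpin, codon 69: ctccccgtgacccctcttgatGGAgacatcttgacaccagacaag
408-codon serpin, codon 307: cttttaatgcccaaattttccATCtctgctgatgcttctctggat
469-codon serpin, codon 355: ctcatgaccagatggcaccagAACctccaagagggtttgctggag
505-codon serpin, codon 103: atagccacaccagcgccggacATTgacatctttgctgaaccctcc

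At codon 200 of the 411-codon serpin the score rose from 0.732 and 0.350 in young through 1.28 and 1.31 in adult to 1.81 and 1.5 in old livers (log2 odds ratio 1.74, Fisher adjusted p = 2.84e-71, adjusted p = 0.00210 in the edgeR model). This step was also called between adult and young in both tests. At codon 307 of the 408-codon serpin the score was 0.850 and 1.43 in young, 0.325 and 0.351 in adult, with 0.395 and 0.355 in old livers (log2 odds ratio -1.62, Fisher adjusted p = 1.93e-135, adjusted p = 0.000965 in the edgeR model). Here the adult and old libraries lay together below the young ones, and the drop from young to adult was called in both tests.

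At codon 103 of the 505-codon serpin the score fell from 3.41 and 4.88 in young to 2.46 and 1.94 in adult and 1.44 and 1.53 in old livers (log2 odds ratio -1.51, adjusted p = 0.00215 in the edgeR model), with no overlap between the 3 ages. The taller codon 102 next to it was at 5.17 and 6.96 in young and 2.92 and 3.21 in old livers (adjusted p = 0.0445 in the edgeR model). Codon 136 of the 453-codon serpin went from 1.19 and 0.714 to 2.08 and 1.98 and then 1.98 and 3.56 (log2 odds ratio 1.5, adjusted p = 0.0123 in the edgeR model). The 469-codon serpin, whose footprints fell with age, had lower scores in old livers at codon 69, from 1.48 and 3.24 in young to 0.5 and 1.17, and at codon 355, from 1.57 and 1.54 to 0.655 and 0.396 (adjusted p = 0.0275 and 0.0147 in the edgeR model). Codon 331 of the 453-codon serpin, at 0.523 and 0.289 in young and 1.25 and 0.907 in old livers, was called by Fisher's exact test alone, while codon 146 of the 403-codon serpin, at 0.497 and 0.309 against 1.21 and 1.37, passed both (adjusted p = 0.0289 in the edgeR model).

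**Figure D5:**
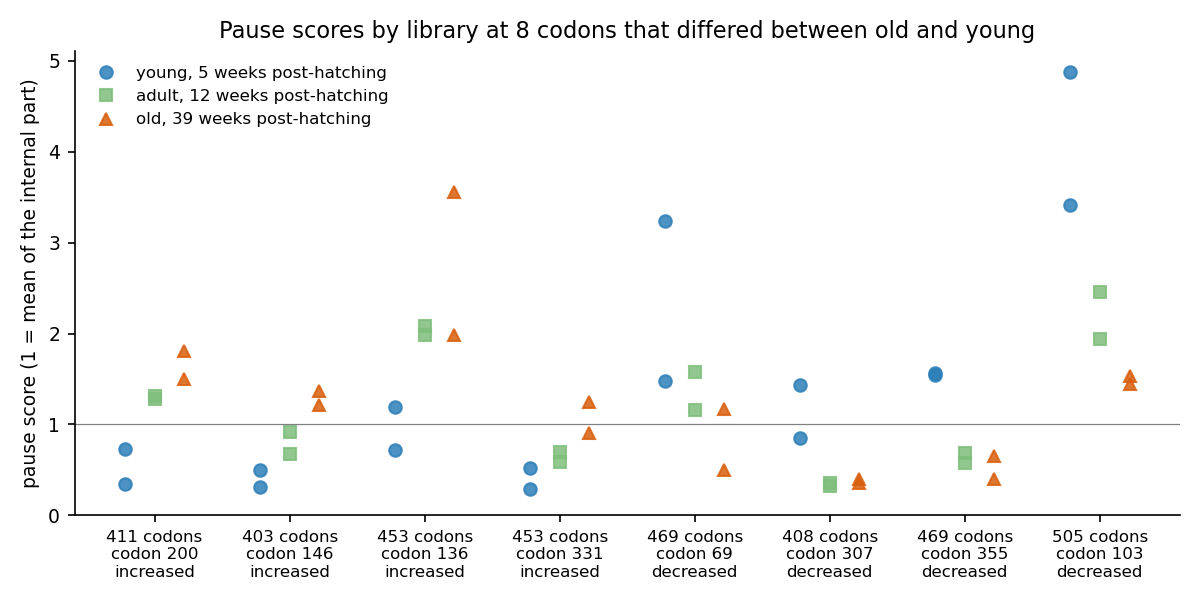
Pause score in each library at the 8 printed codons, by age; 1 is the mean of the internal part of the transcript. The 2 young libraries lie below both old ones at the 4 increased codons and above them at the 4 decreased codons, and at codon 307 of the 408-codon serpin and codon 355 of the 469-codon serpin the adult libraries lie with the old ones.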

How the data were processed

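Pooled livers were lysed with cycloheximide in the buffer and digested with RNase I. Per the labels and methods, the authors trimmed reads with cutadapt 1.4.2, set aside those from ribosomal RNA and aligned with Bowtie 1.3.1 to the longest transcript of each gene, keeping reads with 1 best location and at most 2 mismatches. The deposited values are raw footprint counts per codon at an estimated A site, with 7 flanking codons. The methods name a genome build and annotation for other steps, and none directly for this transcript reference. Members and lists were chosen with earlier results of these data known.

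Footprints from the start codon to the codon before the stop were summed and tested with edgeR 4.0.16 (TMM, filterByExpr, Benjamini-Hochberg) over 15549 transcripts, with DESeq2 1.42.0 as an alternative. The SE of an edgeR log2 change was derived from its test, as the absolute change divided by the square root of the F statistic. Pause sites followed the study's Fisher's exact test. A site was increased when its adjusted p was under 0.05, its odds ratio above 1, its score higher at the older age and its reads above the transcript mean, and decreased in the mirror case. Proteins were aligned with MAFFT 7.526 and Biopython 1.88. A hydrophobic start was a mean Kyte-Doolittle hydropathy of at least 2 over 8 residues within the first 30, and the hinge was sought within 45 residues ahead of the signature; both were set after the sequences were seen. The members described most fully are the 8 of highest mean density and any called between old and young. The tests were tried on simulated data with known changes. Depth was 22555152 to 39661188 coding footprints per library. The methods treat each pool as a biological replicate, so p-values of the edgeR, DESeq2 and permutation tests rest on the spread between pools and not between fish. Those of Fisher's exact test come from summed reads and do not measure the spread between pools.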

Additional observations from a re-analysis of the deposited data

How the results depend on the processing

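The count of serpins called between old and young livers, 1 with edgeR and TMM, was 4 with DESeq2, 2 over the internal part, 3 without the filter on low counts, 4 with library totals, 0 with the replicate number as a block (replicate block) and 0 without each old or young library in turn. Between old and adult livers it was 0, but 2 with DESeq2, 2 with library totals and 1 without the filter, and between adult and young 0 under every alternative run. In old against young, the edgeR call with TMM was lower in old livers, and the 4 with library totals were higher. With DESeq2 1 was higher and 3 lower, over the internal part 1 and 1, and without the filter 2 and 1. Over all transcripts the calls were 1797 of 15549 with edgeR and TMM, 2587 of 16134 with DESeq2 and 1714 of 15166 over the internal part. Without the filter they were 2746 of 21026, and with library totals 3344 of 15549. The calls over all transcripts between old and adult were 595 of 15549 with edgeR and TMM and 1782 of 16134 with DESeq2. Without the filter those were 1908 of 21026, and with library totals 2116 of 15549. Same-numbered libraries showed little shared deviation from the mean of their age, at correlations of -0.0377, 0.129 and -0.141. Whether they were processed in pairs cannot be told from these values. Under library totals the log2 changes from young to old reversed to 0.54 (408 codons), 0.81 (411), 0.27 (453), 0.34 (403), 0.50 (399) and 0.53 (406). Without the second old library the 408-codon value was 0.14 and the 411-codon value 0.02, and the latter was 0.06 without the second young library; the cause was not tested. Without single libraries the 408-codon serpin ranged from -1.02 to 0.14 and the 411-codon one from -0.23 to 0.06.

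The difference in the serpin share outside the 10 most abundant transcripts reversed to -0.188 percentage points (old against young), -0.154 (adult against young) and -0.0342 (old against adult). Without single libraries the differences in the share of all coding footprints, 0.522, 0.0625 and 0.46 percentage points, ranged from 0.231 to 0.813, from -0.421 to 0.546 (reversed at -0.421 and -0.115) and from -0.0236 to 0.943. Serpin pause sites came to 294 to 496, 205 to 466 and 251 to 282 without single libraries, lowest in the first 2 cases without the second young library; the position model in edgeR called 34, 7 and 0. With the replicate block (Cochran-Mantel-Haenszel) they were 410, 351 and 293. Trypsin-like calls rose from 7, 0 and 7 (old against young, adult against young, old against adult) to 20, 1 and 22 with DESeq2. Over all transcripts they rose too, from 1797, 210 and 595 to 2587, 630 and 1782. With library totals the protease calls were 16 and 20 for old against young and against adult, where those over all transcripts were 3344 and 2116. With the replicate block the protease calls fell to 5 and 0 in the same comparisons. Of all 15549 transcripts 969 and 1 passed there. Between old and adult the median log2 change of the proteases was 0.73 with all libraries. It was 0.52 without the first adult library and 0.92 without the second.

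With 2 libraries per age no exact test over libraries can go below p = 0.333, the 7 sparse serpins tested carry 127 to 5409 footprints each, and only the 6 dense serpins support codon-level values.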

Other observations

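The serpin signature also occurred in 12 proteins outside the length and position rule, and 4 of these held it in the last 80 residues but were too short, at most 174 codons. One of the 12, a protein of 226 codons, carried 3377 to 5060 footprints per library, more in each than any of the 7 sparse members tested. The others had at most 766 footprints in any library. Whether such entries are pieces of longer serpins was not tested.

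The transcripts whose log2 CPM (library-scaled counts) followed the 408-codon serpin most closely over the 6 libraries were outside the family, with 1662, 272 and 137 codons and Pearson's r of 0.982, 0.977 and 0.973. They were picked as the closest of all transcripts, so r is a description.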
